A study of Mus musculus with 4 samples.

Results

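The heterogeneous nuclear ribonucleoprotein (hnRNP) genes examined here are 10 mouse genes, Hnrnpa0, Hnrnpa1, Hnrnpa2b1, Hnrnpa3, Hnrnpc, Hnrnpd, Hnrnpdl, Hnrnpu, Hnrnpul1 and Hnrnpul2. A listed MOV10 peak was counted for a gene when its midpoint lay in the span of that gene in the RefSeq annotation of GRCm38.p6. By this rule 29 of the 12236 peaks of the series (0.237%) belonged to 7 of the 10 genes, and Hnrnpa2b1, Hnrnpd and Hnrnpu held 0.

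The peaks come from an eCLIP experiment on MOV10, an RNA helicase that works with Argonaute proteins in mRNA silencing. In eCLIP, ultraviolet light links proteins to RNA in the cell, the protein is precipitated with its RNA fragments, and the fragments are sequenced beside an input library. All 4 libraries, 2 MOV10 immunoprecipitates and 2 inputs, were made from flash-frozen pellets of N2A cells, a mouse neuroblastoma line kept in serum-containing medium, with no genotype or treatment that differed between them. The labels do not state whether separate cultures gave the replicates. The values per peak join all 4 libraries, so each peak has 1 −log10 p and 1 log2 fold enrichment (immunoprecipitate over input), no standard deviation between replicates can be given, and no difference below was tested. The depth of the libraries and the reads behind each peak are unknown. The list holds peaks with a log2 fold enrichment above 3 only, so a gene without a peak is not shown to be unbound. It gives no expression level either. Of 14 sympathetic and neuroblastoma lineage genes, 3 (21.4%) held a peak, Ret, Gata2 and Stmn2, while Phox2a, Th, Dbh and Mycn were among those without one. Of all protein-coding genes, whether or not N2A cells express them, 7.70% held a peak with its midpoint in no second gene. This list and the others below were chosen with earlier results of these data known, so such shares show no preference.

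The hnRNPs are abundant RNA-binding proteins, mostly nuclear, that coat newly made transcripts and take part in splicing, export, stability and translation of mRNA. Most of them bind RNA through RNA recognition motifs, and several move between nucleus and cytoplasm. Many hnRNP genes regulate their own mRNAs or those of their relatives, often through alternative splicing or through elements in the 3′ untranslated region. The data here concern the transcripts of these genes as RNA bound by MOV10, not the hnRNP proteins.

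Peaks were concentrated in Hnrnpa0 and Hnrnpul2. Hnrnpa0 held 11 and Hnrnpul2 held 8, together 19 of the 29 peaks (65.5%). Hnrnpc held 3, Hnrnpa1, Hnrnpa3 and Hnrnpdl held 2 each, and Hnrnpul1 held 1. Over the whole annotation 7.70% of protein-coding genes held at least 1 peak with its midpoint in no second gene. Since the genes were listed with the peaks known, 7 of 10 is a description of the list and no evidence of preference. The median number of peaks was 2 over the 7 hnRNP genes and 3 over all 1686 coding genes with a peak.

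In strength the 29 peaks were spread much as the list as a whole. Their log2 fold enrichment ran from 3.02 to 4.75 with a median of 3.65 (quartiles 3.22 and 4.18), or 12.6-fold, and the median of all 12236 peaks was 3.71. The strongest value in the whole list was 6.93, well above any hnRNP peak. A log2 fold enrichment of at least 4 was reached by 10 of the 29 peaks (34.5%), against 33.7% of all peaks. These 10 lay in Hnrnpa0 (6), Hnrnpul2 (3) and Hnrnpdl (1). The −log10 p of the hnRNP peaks ran from 4.11 to 29.1 with a median of 13.1, against 10.2 over the list. Its upper limit of 400 was reached by 84 of all 12236 peaks and by 0 of the 29. As so few peaks reach it, 0 of 29 is no trait of the hnRNP peaks. A −log10 p of at least 5 was reached by 27 of the 29 (93.1%), against 84.2% of all peaks.

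**Figure D1:**
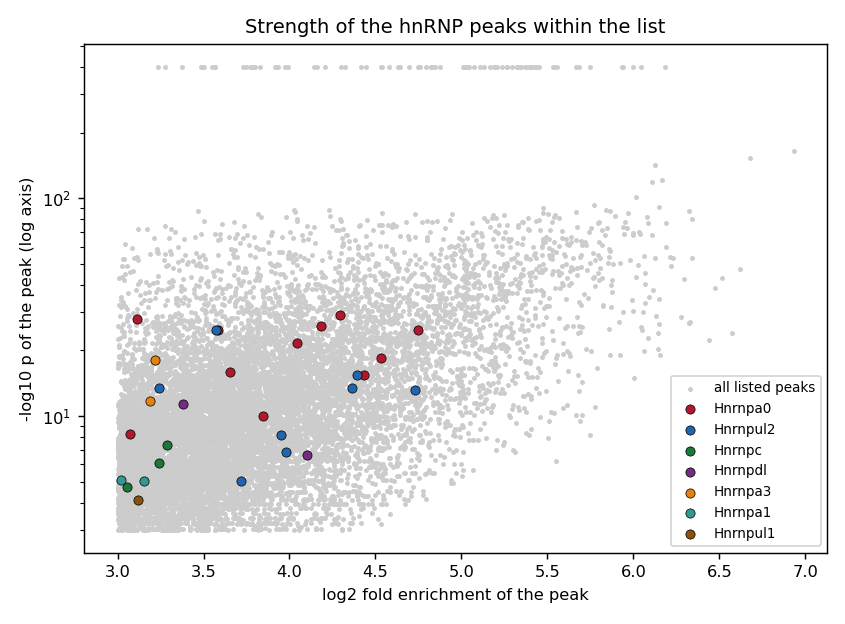
Log2 fold enrichment (horizontal axis) and −log10 p (vertical log axis) of all 12236 listed peaks (grey) and of the 29 peaks in hnRNP genes, coloured by gene. The points of Hnrnpa0 and Hnrnpul2 reach 4.75 and 4.73, and those of Hnrnpa1, Hnrnpa3, Hnrnpc and Hnrnpul1 all lie at or below 3.29.

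All hnRNP peaks lay in the 3′ part of their gene. Of the 29, 29 were nearer to the annotated 3′ end than to the 5′ end, against 97.5% of the 11188 peaks that fell in a single coding gene. The distance from midpoint to 3′ end ran from 138.5 to 3161.5 nt with a median of 634.5 nt, against 1513.5 nt for the single-gene peaks. Within 2 kb of the 3′ end lay 25 of 29 (86.2%), against 61.3% of these single-gene peaks. The 4 peaks beyond 2 kb were those of Hnrnpa1 and Hnrnpa3. These distances depend on gene length, and the hnRNP genes with peaks were short, with a median span of 10303 nt against 43399 nt for all coding genes with peaks. As a share of the span the order turned: the median hnRNP peak lay 10.1% of the gene length before the 3′ end, against 3.04% for the single-gene peaks. Whether a peak lies in an exon, an intron or an untranslated region was not determined, since the annotation used gives gene spans alone. Only the peaks of Hnrnpa0, whose gene has no intron, cannot be intronic.

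**Figure D2:**
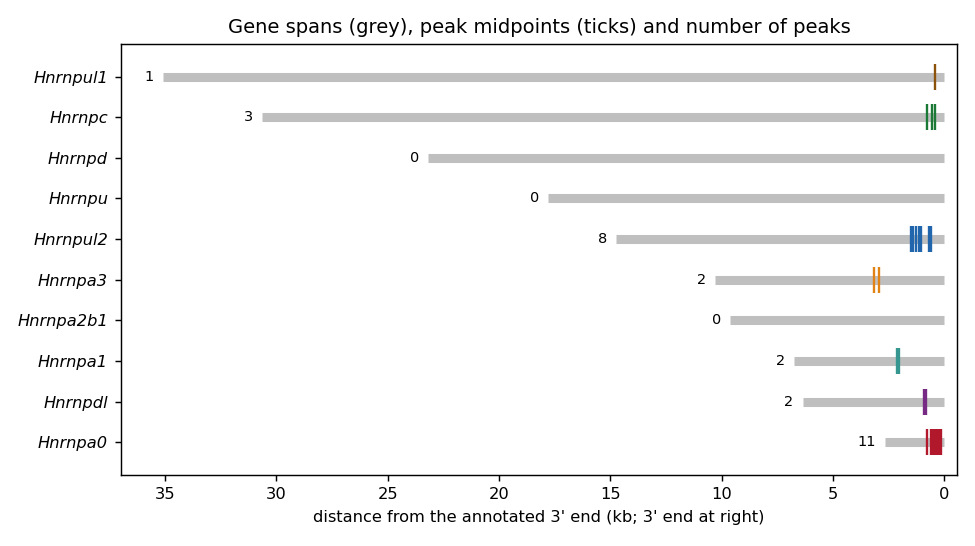
Spans of the 10 hnRNP genes (grey bars, in kb, aligned at the annotated 3′ end on the right) with the midpoints of MOV10 peaks as coloured ticks and the number of peaks at the left of each bar. Ticks stand only in the last 3161.5 nt of any gene, and Hnrnpd, Hnrnpu and Hnrnpa2b1 have none.

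The peaks lay on the strand of their gene. For 6 of the 7 genes with peaks the RefSeq table of transcript starts gave a strand, and for 6 of these 6 it was the strand of the peaks. Among all coding genes with peaks on 1 strand and with 1 strand in that table, 1342 of 1345 (99.8%) did so. For Hnrnpul2 the direction was taken from its peaks alone. None of the 29 peaks had its midpoint in a second gene, and within 5 kb outside the 10 spans there were 0 further peaks on either strand.

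The A/B group comprises Hnrnpa0, Hnrnpa1, Hnrnpa2b1 and Hnrnpa3, related proteins with a pair of RNA recognition motifs and a glycine-rich tail. Its members differed widely in MOV10 peaks. Hnrnpa0 held 11, Hnrnpa1 and Hnrnpa3 held 2 each and Hnrnpa2b1 held 0.

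Hnrnpa0 encodes a protein known to bind AU-rich elements of inflammatory mRNAs, and its gene has no intron. It lies on chromosome 13 (chr13:58125879-58128556, GRCm38, minus strand) and spans 2678 nt, the shortest of the 10. Its strongest peak, chr13:58126242-58126277, reached 4.75 in log2 fold enrichment (26.9-fold), its −log10 p was 24.8, and its midpoint lay 380.5 nt from the 3′ end. The neighbour that touches it on the 5′ side, chr13:58126278-58126302, had 4.53. On its other side the next 3 peaks towards the 3′ end had 4.18 (chr13:58126200-58126241), 4.04 (chr13:58126177-58126199) and 3.65 (chr13:58126161-58126176). The 5 peaks touch each other and form a block of 142 nt in which the enrichment was lowest at the 3′ edge.

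A second block lay nearer to the end of the gene, 3 nt further on. It covered 170 nt with 3 peaks. The peak closest to the 3′ end, chr13:58125988-58126047, had 4.29 and the highest −log10 p of all hnRNP peaks, 29.1. Its neighbour chr13:58126048-58126075 had 4.43, and the third, chr13:58126076-58126157, had 3.59. The strong peaks of Hnrnpa0 thus formed a pair of maxima with a weaker stretch between them.

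Upstream of these blocks the 3 remaining peaks stood apart, each below 4. At chr13:58126314-58126399 a broad peak of 86 nt had 3.11 with a −log10 p of 27.8, so a low enrichment went with a high −log10 p. The peak chr13:58126464-58126471, only 8 nt wide, had 3.07, and chr13:58126655-58126667, 782 nt from the 3′ end, had 3.85. Of the 11 peaks, the 9 nearest to the 3′ end had their midpoints within its last 477.5 nt.

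The peaks of Hnrnpa0 covered 419 nt, or 15.6% of its span. That share ranked 10 of 1686 coding genes with a peak, whose median was 0.838%, while in covered nt Hnrnpa0 ranked 736. The share is taken over the whole span, introns included. The median span of the 1686 genes was 43399 nt, against 2678 nt for Hnrnpa0, so the shares are not measured alike. In peaks per gene Hnrnpa0 ranked 292, level with 29 further genes, and in its strongest log2 fold enrichment 244. A set of 40 coding genes with peaks and a span under 5 kb was chosen after the values were seen. Among them Hnrnpa0 and 1 further gene held the most peaks, touching ones counted separately, against a median of 1. In the same 40 genes Hnrnpa0 ranked 6 by the share of its span covered and 3 by its strongest enrichment.

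Hnrnpa1 and Hnrnpa3 carried a pair of peaks of low enrichment each, farther inside the gene. Hnrnpa1 encodes one of the most abundant hnRNPs, a splicing repressor that shuttles to the cytoplasm (chr15:103239943-103246698, plus strand). Its peaks touch, at chr15:103244537-103244603 with a log2 fold enrichment of 3.02 and at chr15:103244604-103244728 with 3.15, and their −log10 p values were 5.10 and 5.03. Both log2 values stand close to the lower limit of the list. The midpoints lay 2128 and 2032 nt from the 3′ end.

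Hnrnpa3, a relative implicated in RNA transport (chr2:75659105-75669407, plus strand), had its peaks at chr2:75666173-75666318 with 3.22 and at chr2:75666426-75666515 with 3.19. Their −log10 p values of 18.1 and 11.8 were higher than those of Hnrnpa1 at nearly the same enrichment, and above the median of the list, 10.2. The midpoints lay 3161.5 and 2936.5 nt from the 3′ end, with 107 nt between the peaks. As a share of the span the farthest midpoint lay 31.5% before the 3′ end in Hnrnpa1 and 30.7% in Hnrnpa3. These genes have processed copies elsewhere in the genome, so reads may be shared between near-identical sequences, and how the authors placed such reads is not stated in the labels.

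Hnrnpa1 lies next to Cbx5, the gene with the most peaks in the list (110), with 38 nt between the spans on chromosome 15. The peaks of Hnrnpa1 were on the plus strand, the strand of the gene, and in its 3′ part. Within 5 kb outside its span there were 0 peaks on either strand. Whether the neighbour bears on the peaks of Hnrnpa1 was not tested.

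Hnrnpa2b1 encodes hnRNP A2 and B1, which bind mRNAs for transport in neural cells and sort microRNAs into exosomes. It held 0 peaks (chr6:51460434-51470048, minus strand) and had 0 within 5 kb outside its span.

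The D group, Hnrnpd and Hnrnpdl, lies on chromosome 5 with 54446 nt between the genes. Hnrnpd encodes AUF1, which binds AU-rich elements and promotes the decay of many of their mRNAs, and held 0 peaks (chr5:99955935-99979130, minus strand). Hnrnpdl, its close relative, whose transcript is known for alternative splicing within the 3′ untranslated region, held 2 (chr5:100033577-100039936, minus strand). The stronger, chr5:100034334-100034440, had a log2 fold enrichment of 4.10 (17.2-fold) with a −log10 p of 6.61. The other, chr5:100034441-100034551, touches it on the 5′ side and had 3.38 with a −log10 p of 11.4. So the peak with the higher enrichment had the lower −log10 p, and the 2 differed by 0.72 on the log2 scale. Their midpoints lay 810 and 919 nt from the 3′ end. The strongest value of Hnrnpdl ranked 629 of 1686.

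Hnrnpc encodes a mainly nuclear protein that binds uridine tracts and keeps cryptic exons out of mRNA (chr14:52073377-52104039, minus strand). Its 3 peaks lay in the last 760.5 nt of a span of 30663 nt, measured to the midpoint of the farthest. Their log2 fold enrichments were 3.24 at chr14:52073757-52073840, 3.29 at chr14:52073841-52073962 and 3.05 at chr14:52074115-52074160. All lay below the lower quartile of the list, 3.34. The −log10 p values were 6.09, 7.36 and 4.74.

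**Figure D3:**
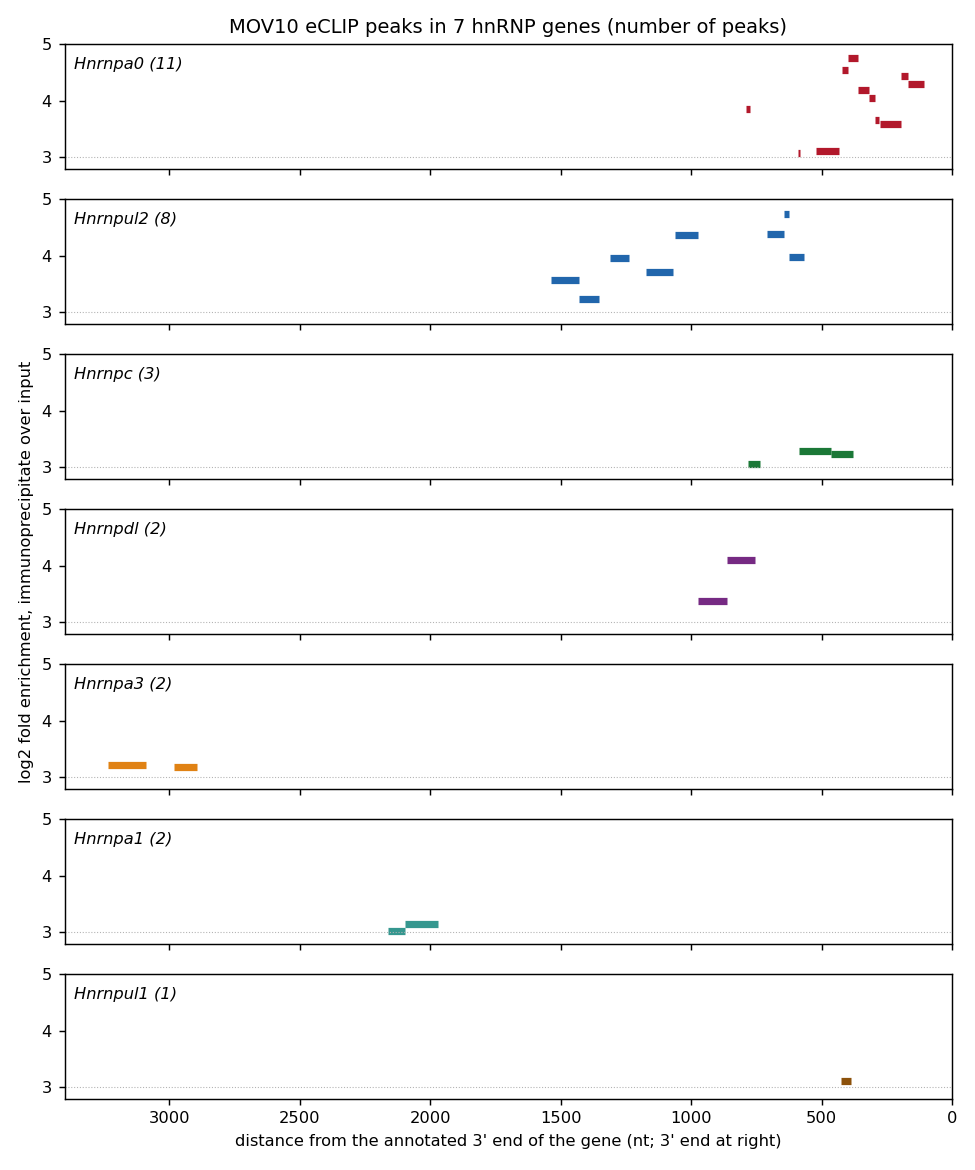
Log2 fold enrichment of each MOV10 peak (vertical axis) against its distance from the annotated 3′ end (horizontal axis, in nt, 3′ end at right) in the 7 hnRNP genes with peaks; each bar spans the width of 1 peak, and the dotted line marks 3, the lower limit of the list. The midpoints of the Hnrnpa0 peaks reach up to 782 nt from the end. Those of Hnrnpul2 lie between 596.5 and 1483 nt, and those of Hnrnpa1 and Hnrnpa3 beyond 2 kb.

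The U group encodes large proteins with a SAP domain, which binds DNA, and an RGG-rich tail, which binds RNA. Hnrnpu, also called scaffold attachment factor A, organises chromatin together with nuclear RNA, and Hnrnpul1 and Hnrnpul2 are its relatives with roles in the DNA damage response. The 3 genes held 0, 1 and 8 peaks in that order.

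Hnrnpul2 (chr19:8819401-8834143) carried 2 clusters of peaks separated by 264 nt. The cluster nearer to the 3′ end was a block of 139 nt with 3 touching peaks, at chr19:8833435-8833497 with a log2 fold enrichment of 4.39, at chr19:8833498-8833519 with 4.73 (26.6-fold) and at chr19:8833520-8833573 with 3.98. The middle one, 22 nt wide and 634.5 nt from the 3′ end, was thus the maximum, and both neighbours were lower. Its −log10 p was 13.1.

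The farther cluster of Hnrnpul2 held 5 peaks, of which the nearest to the 3′ end was the strongest. This peak, chr19:8833083-8833170, had 4.37. Behind it followed chr19:8832970-8833072 with 3.72, chr19:8832831-8832906 with 3.95, chr19:8832715-8832790 with 3.24 and chr19:8832606-8832714 with 3.57. The median was 3.72 in these 5 and 4.39 in the 3 of the other cluster. The last of the 5, 1483 nt from the end, had the highest −log10 p of the gene, 24.8, and chr19:8832970-8833072 the lowest, 5.04. By its strongest value Hnrnpul2 ranked 255 of 1686 and by its number of peaks 409, level with 46 further genes. Its peaks covered 591 nt, more than those of any other hnRNP gene.

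Hnrnpul1 held a single peak (chr7:25721161-25756268, minus strand). At chr7:25721548-25721585 its log2 fold enrichment was 3.12 and its −log10 p 4.11, the lowest of the 29, and it lay 405.5 nt from the 3′ end. The strongest peak of Hnrnpa0 was 3.09 times as enriched on the linear scale. Hnrnpu had 0 peaks in a span of 17784 nt (chr1:178321108-178338891, minus strand).

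In order of their strongest peak the genes were Hnrnpa0 (4.75), Hnrnpul2 (4.73), Hnrnpdl (4.10), Hnrnpc (3.29), Hnrnpa3 (3.22), Hnrnpa1 (3.15) and Hnrnpul1 (3.12). The first 2 differ by little, as do the last 4, and without values per library no neighbours in this order can be separated. The last 4 ranked between 1407 and 1556 of 1686 coding genes. The median over the 7 genes was 3.29, against 3.85 over all coding genes with a peak. By the highest −log10 p of a gene the comparison turned, with a median of 11.4 over the 7 genes against 8.93. By that value Hnrnpc, Hnrnpa3, Hnrnpa1 and Hnrnpul1 ranked 1026, 345, 1303 and 1472, so the order of the genes depends on the measure. Outside Hnrnpa0 and Hnrnpul2 the median log2 fold enrichment of the 10 remaining peaks was 3.20, against 3.98 for the 19 peaks of Hnrnpa0 and Hnrnpul2.

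**Figure D4:**
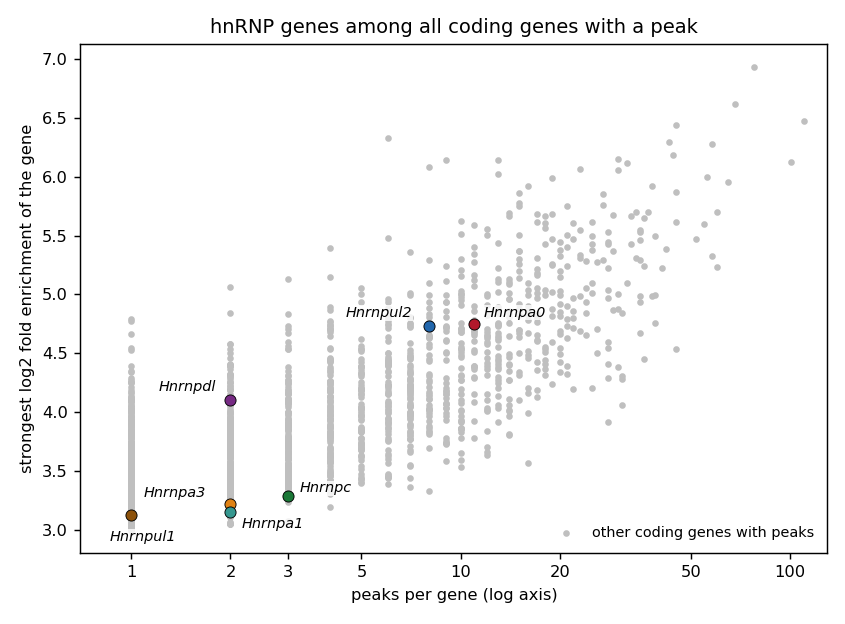
Number of peaks (horizontal log axis) and strongest log2 fold enrichment (vertical axis) of the 1686 coding genes with a peak, with the 7 hnRNP genes in colour. Hnrnpa0 (11 peaks, 4.75) and Hnrnpul2 (8 peaks, 4.73) stand apart from the other 5, which have 1 to 3 peaks.

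Peak shape also varied among the hnRNP genes. Widths ran from 8 to 146 nt with a median of 67 nt, against 74 nt over the list, and 19 of the 29 peaks (65.5%) touched a further peak, against 54.2% of the peaks in single coding genes. With touching peaks joined, 17 intervals covering 1946 nt were left. The median width was 28 nt in Hnrnpa0 and 76 nt in Hnrnpul2, and Hnrnpa0 had the larger number of peaks and the smaller covered length. The lead in number rests on touching peaks counted separately. Joined, they left 5 intervals in Hnrnpa0 and 5 in Hnrnpul2.

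Other genes of the family were set beside the 10. Of 10 further genes with an Hnrnp symbol, namely Hnrnpab, Hnrnpf, Hnrnph1, Hnrnph2, Hnrnph3, Hnrnpk, Hnrnpl, Hnrnpll, Hnrnpm and Hnrnpr, 0 held a peak. Over all coding genes 7.70% did, so 0 of 10 is close to that share. Both sets together gave 7 of 20 (35.0%). Of 13 genes of other hnRNPs and related RNA-binding proteins, 4 (30.8%) held peaks, against 7.70% of all coding genes. These were Msi2, a translational regulator of neural progenitors (15 peaks, up to 4.34), Tardbp, which encodes TDP-43 (8 peaks, up to 4.04), Msi1 (1 peak at 3.97) and Pcbp2, a poly(C)-binding protein (1 peak at 3.01 and 3 more where it overlaps a second gene). The 9 without one included Syncrip, Ptbp1 and Ewsr1. The 25 peaks of the 4 genes had a median log2 fold enrichment of 3.66. As these lists were chosen with earlier results of the data known, their shares show no preference.

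The SR proteins, which often act against hnRNPs in the choice of splice sites, were set beside them. Of 13 SR and Tra2 genes 2 (15.4%, against 7.70% of all coding genes) held peaks, Srsf1 with 20 (up to 5.20) and Srsf3 with 1 at 3.15. Of these 21, 1 had its midpoint in the last 2 kb of the gene, against 25 of the 29 hnRNP peaks, 13 of the 25 peaks of the other hnRNPs and relatives, and 61.3% of all peaks in single coding genes. Nearly all of the 21 belong to Srsf1, whose peaks lay 2379 to 3769 nt from its end, so this contrast is one of few genes and was not tested. The SR list too was chosen with earlier results known, so 15.4% shows no preference.

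Genes alike in number of peaks and median log2 fold enrichment were sought, within this single list and over no samples or conditions. Closest to Hnrnpa0 (median 4.04) among the 29 further genes with 11 peaks were Eloa, Shisal1 and Tns1, with medians of 4.03, 4.12 and 4.17. For Hnrnpul2 (median 3.97) they were Mapk1ip1l, Bard1 and Neurl1b, at 3.96, 4.00 and 3.93. For Hnrnpc (median 3.24) they were Palm, Ube2l3 and Zc3hav1, each at 3.24. Strongest value and position were not matched. Eloa, Shisal1 and Tns1 reached 5.41, 4.68 and 4.66, against 4.75 in Hnrnpa0. Their farthest midpoints lay 1477.5, 2440.5 and 3021 nt from the 3′ end, against 782 nt in Hnrnpa0. The whole span of Hnrnpa0, 2678 nt, is shorter than the largest of these distances, so they are not measured alike.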

How the data were processed

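Peaks were called by the authors on immunoprecipitate against input after eCLIP by the published method, per the labels' protocols, and joined over replicates by an irreproducible discovery rate step, per the file's name. The deposited list has no header. Of its 2 values, one was taken as the −log10 p and the other as the log2 fold enrichment computed by the authors, from their ranges (both start just above 3) and the column order of published eCLIP files. If a reading is wrong, statements on strength would change and those on position would not. The submitters' processing notes name mm10 and GRCm38.p6. Neither labels nor file state the aligner, the peak caller or its thresholds.

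From these, starts were converted to count from 1, and peaks were assigned by midpoint to RefSeq gene spans (GRCm38.p6), with gene direction from the strand of the peaks. Gene statistics used peaks in exactly 1 coding gene. Distances run from the midpoint to the annotated end. Python 3.11.15 with pandas 2.3.3 was used, and the assignment was tested on simulated peaks. All 10 genes were named, with all their peaks. Alternatives were the assignment rule, merging, stricter thresholds and other windows. The genes and lists were chosen with earlier results of these data known.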

Additional observations from a re-analysis of the deposited data

How the results depend on the processing

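The number of hnRNP peaks was 29 with any overlap of at least 1 nt, with the whole peak inside the span and with peaks of a single gene only, and 27 at a −log10 p of at least 5. It was 17 with touching peaks merged and 10 with those at log2 values of 4 or more. The number of genes with a peak was 6 at a −log10 p of at least 5, where Hnrnpul1 was lost, and 3 at log2 values of 4 or more (Hnrnpa0, Hnrnpul2 and Hnrnpdl). The median log2 fold enrichment was 3.72 at a −log10 p of at least 5, 3.57 with touching peaks merged and 3.29 with the strongest peak of each gene alone, against 3.65. The share nearer to the 3′ end was 100% under the 4 alternatives run. The share within the window was 69.0% at 1 kb, 100% at 5 kb and 71.4% over the strongest peaks (5 of 7), against 86.2% at 2 kb. For all single-gene peaks the share was computed at 2 kb alone (61.3%), so those at 1 kb and 5 kb have no comparison. A window of 5 kb takes in the whole span of Hnrnpa0 (2678 nt), so 100% there says little. No paired analysis was possible because the list holds 1 value per peak over all libraries, and for the same reason no replicate could be left out. The read depth behind a peak is unknown, so no counting error can be given. The lower limit of 3 could not be changed here, so how many hnRNP peaks lie just below it is not known.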
